A study of Drosophila melanogaster with 3 samples.

Results

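The mitochondrial ribosomal protein genes were taken as the protein-coding genes of the Ensembl annotation (BDGP6) whose name begins with mRpL or mRpS followed by a digit. There were 73 of them among 13945 protein-coding genes, and RefSeq describes all 73 as mitochondrial ribosomal proteins. Binding at their starts was read from chromatin immunoprecipitation and sequencing (ChIP-seq) of 3 biological replicates of whole Drosophila melanogaster prepupae, males and females pooled, of 1 stable transgenic line. The line carries CG44002 with GFP at its C-terminal end, the strain is named CG34406-GFP, and chromatin sheared to 200 to 800 bp was precipitated with antibody to GFP. The labels give the age as unknown and name CG34406 in the antibody field, and the 3 libraries form a single group with no untagged library analysed here. Whole animals were used, so binding in 1 tissue cannot be told apart from weaker binding in many. The peak lists hold no expression values, so neither the labelled stage nor the level of the tagged protein could be checked.

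Mitochondria keep a ribosome of their own, which translates the few proteins encoded by mitochondrial DNA, all of them parts of the respiratory chain and ATP synthase. Its RNA is made inside the organelle, but every one of its proteins is encoded in the nucleus, made in the cytosol and imported. Proteins of the large subunit, where peptide bonds form, are named mRpL, and those of the small subunit, which holds the messenger RNA, are named mRpS. Many of these proteins descend from bacterial ones and keep their numbers, while others are found in mitochondria and not in bacteria. In flies many of the genes stand head to head with an unrelated gene, so that both starts share 1 short stretch of DNA.

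A gene was called bound when the summit of a peak was no more than 500 bp from 1 of its starts. The peaks were those kept by the authors at their IDR (irreproducible discovery rate) threshold, which compares the order of peaks between replicates. By this rule 21 of the 73 genes were bound, 28.8% (95% exact interval 18.8% to 40.6%, counting error only), against 19.5% of all protein-coding genes. The interval reached below the background share, and no test was made, since the series has 1 group and no contrast. The 21 genes had 21 different summits, 1 each, and no 2 of the genes shared a summit.

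All 21 bound genes had a divergent partner, meaning another gene that starts within 1 kb upstream on the other strand. Of the 73 genes 58 had such a partner, 79.5%, against 39.6% of protein-coding genes, and every partner was protein-coding. Among these 58 the bound share was 36.2% (95% exact interval 24% to 49.9%), near the 31.6% of all protein-coding genes with a divergent partner. Of the 15 genes with no partner 0 were bound. A count of 0 leaves room for a share of up to 20%. Here and below, such a limit is 3 divided by the number of genes. The 11.6% of protein-coding genes with no partner lies within that limit. These 15 were mRpL9, mRpL10, mRpL12, mRpL13, mRpL14, mRpL19, mRpL36, mRpL40, mRpL45, mRpL49, mRpS5, mRpS9, mRpS33, mRpS34 and mRpS35. Taking the background share of each arrangement, 20.1 of the 73 genes would be bound, beside the 21 counted, whereas the share of all protein-coding genes gives 14.3. A summit within 500 bp of both divergent starts counts for both genes. The summits counted for the ribosomal genes therefore also counted for their partners, except at mRpL41. Its summit lay 625 bp from the start of its partner, CG8079.

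**Figure D1:**
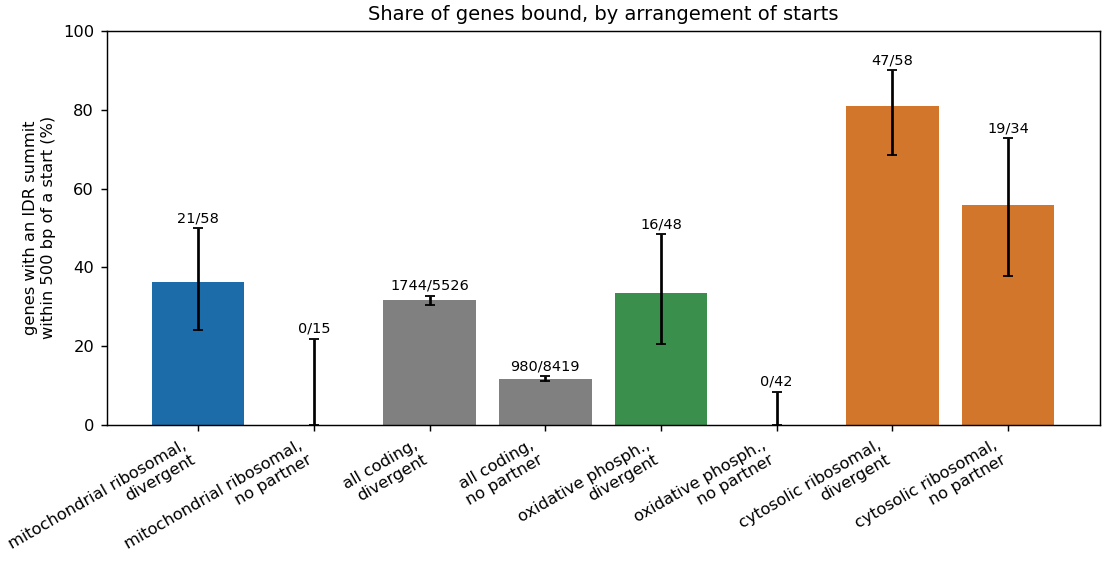
Bars give the percent of genes with an IDR summit within 500 bp of a start, split by whether another gene starts within 1 kb upstream on the other strand, for the mitochondrial ribosomal protein genes, all protein-coding genes, oxidative phosphorylation genes and cytosolic ribosomal protein genes. Error bars are 95% exact binomial intervals and the numbers above them are genes bound of genes in the group. Bound mitochondrial ribosomal protein genes are found on the divergent side alone, 21 of 58 against 0 of 15.

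The median distance between the divergent starts was larger at bound than at unbound genes, and this difference was not tested. The median was 384 bp at the 21 bound genes, 264 bp at the 37 divergent genes that were not bound, and 298 bp over all protein-coding genes with a partner. Over the bound protein-coding genes with a partner it was 304 bp. Where the starts lay 1 to 200 bp apart, 4 of 22 genes were bound (18.2%), against 25.3% of protein-coding genes in that range. Where they lay more than 200 bp and up to 1 kb apart, 17 of 36 were bound (47.2%, 95% exact interval 30.4% to 64.5%), against 34.3% of protein-coding genes. That interval includes the 34.3%, and the division at 200 bp was chosen after the values were seen.

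Summits lay for the most part between the pair of starts. At 16 of the 21 genes (76.2%) the summit was between the starts, at 4 it was inside the partner and at 1, mRpL23, it was inside the ribosomal gene, while 63.6% of the 1744 bound protein-coding genes with a partner had theirs between the starts. Measured from the ribosomal gene's own start, 20 of 21 summits were upstream, from -496 to 50 bp with a median of -153 bp. The start nearest to the summit was the gene's own at 8 of 21 (38.1%) and the partner's at the other 13. Over the bound protein-coding genes with a partner, the gene's own start was the nearest at 59%. When each summit was given to its nearest start alone, 8 of 73 genes were bound, 11%, against 14.8% of protein-coding genes. The order of the genes and the background was thus reversed. The 14.8% is not matched for arrangement, and the difference was not tested. The 8 were mRpL23, mRpL41, mRpL54, mRpS6, mRpS7, mRpS18B, mRpS22 and mRpS26.

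**Figure D2:**
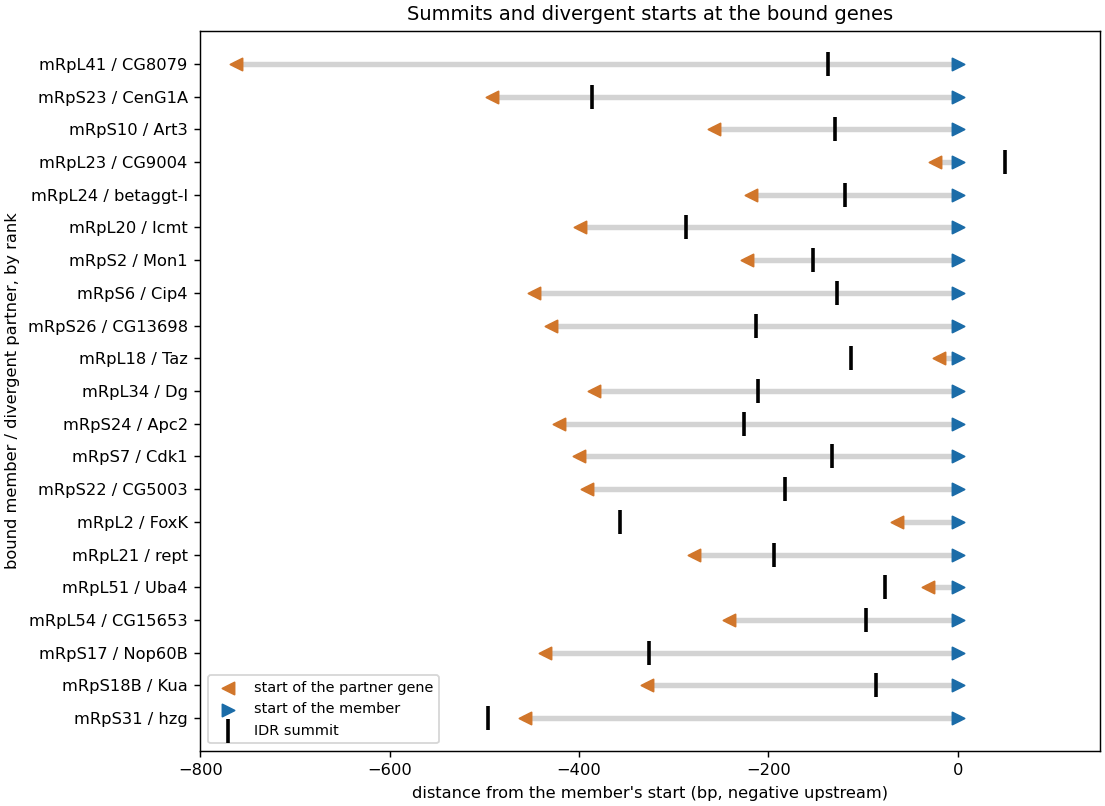
Each row is 1 bound gene with its divergent partner, ordered by rank, and the x axis is the distance from the ribosomal gene's start in bp. Blue and orange triangles mark the 2 starts and black ticks the IDR summit, which lies between the starts at 16 of 21 genes and farthest from the gene's own start at mRpS31, at -496 bp.

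A small group of the ribosomal genes had summits near the head of the whole list. In the IDR list of 7089 peaks, mRpL41 ranked 14, mRpS23 15, mRpS10 23, mRpL23 52, mRpL24 189 and mRpL20 250 by the authors' signal value. These 6 are 8.22% of the 73 genes, while 202 protein-coding genes, 1.45%, had a best summit in the first 250 ranks. All 6 had a divergent partner, and the 1.45% is not matched for that. Among the first 500 pooled peaks, which add no ribosomal gene to these 6, the shares were 10.3% of divergent ribosomal genes and 3.98% of divergent protein-coding genes. The shares lay closer at greater depth, 15.5% and 12.7% among the first 2000 peaks and 19.0% and 17.2% among the first 3000. At mRpS23, mRpS10, mRpL24 and mRpL20 the start nearest to the summit was the partner's. The median signal at the 21 genes was 181, near the 187 at the best summits of all bound protein-coding genes. The cut at rank 250 was chosen after the ranks were seen and falls just at mRpL20. The signal has no stated scale and is compared only within 1 list.

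mRpL41, a large subunit protein without a bacterial counterpart, had the highest rank of the group and lay on chromosome arm 2R. Its summit (15217754) lay 137 bp upstream of its start and 625 bp from that of CG8079. The rank was 20 in replicate 1, 8 in replicate 2 and 12 in replicate 3, with signals of 723, 684 and 492 in those lists of 30000 peaks each. All 3 replicates therefore placed it among their 20 strongest peaks.

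mRpS23, a small subunit protein found in mitochondria and not in bacteria, lies head to head with CenG1A, a centaurin GTPase-activating protein, 492 bp away. The summit on 2L (13835458) was 386 bp upstream of mRpS23 and 106 bp upstream of CenG1A. It ranked 11, 18 and 11 in replicates 1, 2 and 3, with signals of 788.7, 598.1 and 500.6. The ranks were close to each other in the 3 lists, and the nearer start was the partner's.

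mRpS10, whose bacterial counterpart sits in the head of the small subunit, shares 257 bp with Art3, an arginine methyltransferase gene. The summit on 3R (15229535) was almost midway, 130 bp from mRpS10 and 127 bp from Art3, and ranked 31, 14 and 19. mRpL23, whose bacterial counterpart lies at the exit of the peptide tunnel, starts 24 bp from CG9004. Its summit on 3L (2373628) was 50 bp downstream of the nearest of its 3 annotated starts and ranked 48, 50 and 80. It was the only summit of the 21 downstream of the ribosomal gene's start.

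mRpL24, a tunnel exit protein in bacteria, and betaggt-I, a subunit of a protein prenylation enzyme, start 218 bp apart on 2L. Their summit (4945480) lay 119 bp from mRpL24 and ranked 173, 164 and 296. mRpL20, whose bacterial counterpart is needed to assemble the large subunit, and Icmt, a methyltransferase of prenylated proteins, start 399 bp apart on 3L. Their summit (13018154) lay 287 bp from mRpL20, 112 bp from Icmt, and ranked 255, 269 and 216. mRpS2 and Mon1, an endosome fusion gene, had the next summit, at rank 679 in the IDR list and 668, 559 and 930 in the replicates. All 3 replicates ranked these 7 genes within their top 1000, with mRpS2 in replicate 3 the lowest at 930.

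**Figure D3:**
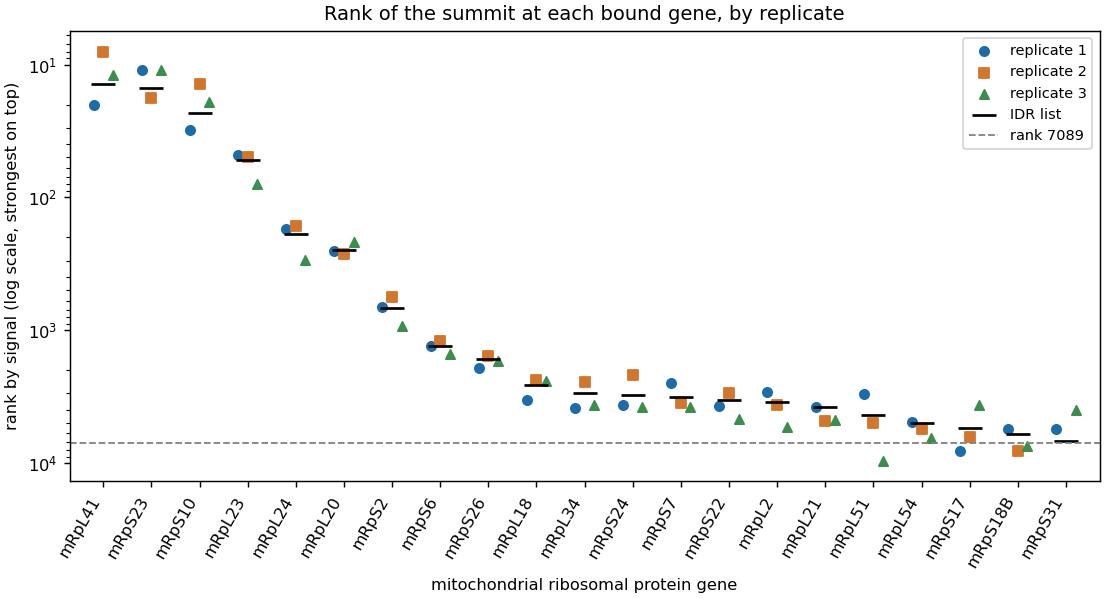
Points give the rank by signal, on a log axis with the strongest on top, of the peak holding each bound gene's IDR summit in replicates 1, 2 and 3, and black bars the rank in the IDR list. The first 7 genes rank between 8 and 930 in every replicate, while points of mRpL51, mRpS17 and mRpS18B fall past rank 7089, and mRpS31 has no point for replicate 2.

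The DNA at these summits was rich in A and T. The stretches that follow are the 100 bases around the summit at 7 of the strongest genes, chosen because the stretch lies outside every annotated exon. They are read from release 6 of the genome (dm6) 5′ to 3′ on the strand of the ribosomal gene, and capitals mark the longest unbroken run of A and T in each.
mRpS23 (chr2L:13835408-13835507, minus strand): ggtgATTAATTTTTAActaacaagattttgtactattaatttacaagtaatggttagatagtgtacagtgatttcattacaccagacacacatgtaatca
mRpS10 (chr3R:15229485-15229584, plus strand): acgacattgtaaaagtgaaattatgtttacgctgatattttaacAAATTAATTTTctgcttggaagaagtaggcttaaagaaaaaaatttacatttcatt
mRpL24 (chr2L:4945430-4945529, minus strand): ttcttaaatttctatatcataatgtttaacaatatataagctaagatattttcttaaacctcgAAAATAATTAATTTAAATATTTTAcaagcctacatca
mRpL20 (chr3L:13018104-13018203, minus strand): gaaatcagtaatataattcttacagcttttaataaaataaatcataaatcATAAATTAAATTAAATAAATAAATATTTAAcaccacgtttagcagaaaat
mRpS2 (chr2L:4850522-4850621, minus strand): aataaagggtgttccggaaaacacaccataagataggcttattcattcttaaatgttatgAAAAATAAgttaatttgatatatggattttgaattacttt
mRpS6 (chr3L:4364373-4364472, plus strand): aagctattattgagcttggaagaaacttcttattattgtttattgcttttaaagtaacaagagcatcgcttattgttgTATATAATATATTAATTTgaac
mRpS26 (chr3L:18106316-18106415, plus strand): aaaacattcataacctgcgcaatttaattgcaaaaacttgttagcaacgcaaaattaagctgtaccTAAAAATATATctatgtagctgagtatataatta

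In these 7 stretches 72% to 83% of the bases were A or T. The longest run of A and T measured 30 bases at mRpL20, 24 at mRpL24 and 18 at mRpS6, and 8 at mRpS2. Over all 21 genes the 100 bases at the summit held 72.3% A and T on average, from 55% at mRpL18 to 83% at mRpL20, while the 2565 IDR summits within 500 bp of any start held 66.7%. The content fell away on both sides, to 49.8% at 500 bp to the left and 49.9% at 500 bp to the right, where the average over promoter summits was 55.2% and 54.9%. The 300 bases from 250 before to 50 after the outermost start held 65.4% at the bound genes and 61.7% at the 37 divergent genes that were not bound. The single ranges overlapped widely, from 53.3% to 72% at bound genes and from 42.3% to 74.3% at these unbound ones.

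**Figure D4:**
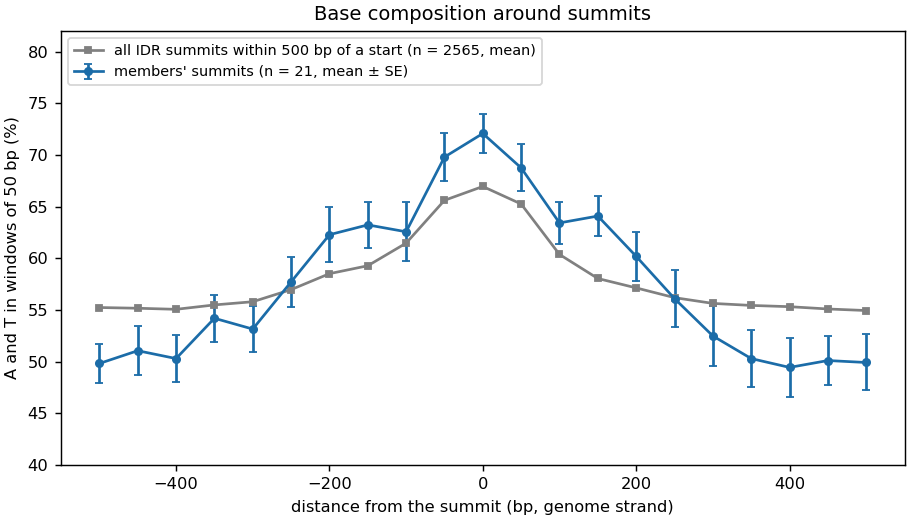
The percent of A and T in windows of 50 bp is plotted against distance from the summit in bp, for the 21 summits of the bound genes (blue, mean ± SE over summits) and for all 2565 IDR summits within 500 bp of a start (grey, mean). The blue line is above the grey one at the summit, 72.1% against 67.0%, and below it from 300 bp outward on both sides.

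Known promoter strings were sought on both strands. In the 300 bases at the outermost start, TATCGATA, the element of the factor DREF (DRE), was found at 15 of the 73 genes (20.5%) and at 9.36% of protein-coding genes. Among genes with a divergent partner the shares were 20.7% and 15.2%. The string was no more frequent at bound than at unbound ribosomal genes, with 3 of 21 against 12 of 52. GGTCACAC, part of motif 1 of the factor M1BP, was at none of the 21 bound genes and at 8 of the 52 unbound ones, beside 10.8% of bound protein-coding genes. CAGCNCT, part of Ohler motif 7, was at 1 of 21 and 11 of 52, and the TATA box TATAAA at 10 of 21 and 24 of 52. Over all protein-coding genes GGTCACAC was at 7.70%, CAGCNCT at 16.1% and TATAAA at 45.8%. CACGTG, the E-box that Myc can bind, was at 5 of the 73 genes, or 6.85%, against 4.20% of protein-coding genes. GCGCATGCG, the string of the mammalian respiratory factor NRF1 and its fly relative Ewg, was in none of the 73 windows and in 0.502% of protein-coding ones. A match is a description of the letters and not a binding site.

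Closer to the summit, within the 200 bp around it, DRE was found at 2 of the 21 genes, mRpS17 and mRpS18B, beside 4.13% of promoter summits. The TATA box was found at 9 of 21 (42.9%), beside 38.9%. A further set of stretches of 100 bases hold a string, shown here in capitals: ATCGAT, the core of DRE, at mRpS24 and the TATA box, on the opposite strand, at mRpS7 and mRpL2.
mRpS24 (chr3R:24163721-24163820, minus strand): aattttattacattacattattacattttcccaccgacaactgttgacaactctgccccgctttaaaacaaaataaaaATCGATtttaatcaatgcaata
mRpS7 (chr2L:10386479-10386578, plus strand): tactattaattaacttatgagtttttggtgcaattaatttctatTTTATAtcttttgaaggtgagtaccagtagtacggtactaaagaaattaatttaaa
mRpL2 (chr3L:11120440-11120539, plus strand): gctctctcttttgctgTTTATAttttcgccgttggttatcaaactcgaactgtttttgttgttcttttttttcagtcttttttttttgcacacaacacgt

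Both subunits were represented among the bound genes. The small subunit had 11 of 26 genes bound (42.3%, 95% exact interval 23.4% to 63.1%) and the large subunit 10 of 47 (21.3%, 95% exact interval 10.7% to 35.7%). The intervals overlapped, and a partner was present at 80.8% of small and 78.7% of large subunit genes. Among genes with a partner 11 of 21 small subunit genes were bound (52.4%, 95% exact interval 29.8% to 74.3%). For the large subunit it was 10 of 37 (27.0%, 13.8% to 44.1%). Both intervals include the 31.6% of all protein-coding genes with a divergent partner, and the difference between subunits was not tested. All protein-coding genes, not matched for arrangement, stood at 19.5%. Of the 42 genes that keep a number used in bacteria (up to 36 in the large and 21 in the small subunit) 13 were bound (31.0%), and of the 31 with a higher number 8 (25.8%).

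By chromosome, 6 of 12 genes were bound on 2L, 5 of 12 on 2R, 7 of 17 on 3L and 3 of 21 on 3R. A divergent partner was present at 10, 12, 12 and 15 of these genes. The share of all protein-coding genes was counted by arm for X only, so these counts have no background of their own arm. Over all arms that share was 19.5%. None of the 11 on X was bound, although 9 of them had a divergent partner. That allows a share of up to 27.3%, and 20.2% of X-linked protein-coding genes were bound. The 20.2% lies within that limit but is not matched for arrangement. Over all arms, 31.6% of protein-coding genes with a divergent partner were bound. With 11 genes the limit is wide, and the difference was not tested.

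The remaining bound genes had summits from rank 1316 to rank 6901 of the 7089. mRpS6, whose bacterial counterpart pairs with the protein of the mRpS18 family, and Cip4 shared rank 1316. mRpS26 and CG13698 shared rank 1655. mRpL18 and Taz, the gene of tafazzin, which remodels the mitochondrial lipid cardiolipin, start 20 bp apart and shared rank 2577. Here the summit lay inside Taz, 93 bp past its start. mRpL34 shared rank 2999 with Dg, which encodes dystroglycan, and mRpS24 rank 3091 with Apc2, a regulator of Wnt signalling. mRpS7, which in bacteria lies near the messenger RNA exit, shared rank 3185 with Cdk1, the mitotic kinase.

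mRpS22 and CG5003 followed at rank 3386. mRpL2, whose bacterial counterpart lies by the catalytic centre, starts 64 bp from FoxK, a forkhead factor gene, and their summit at rank 3493 lay 79 bp upstream of a FoxK start and 357 bp from mRpL2. mRpL21 shared rank 3811 with rept, an ATPase of chromatin complexes, mRpL51 rank 4335 with Uba4, and mRpL54 rank 5008 with CG15653. Last came mRpS17 with Nop60B, a pseudouridine synthase, at rank 5448, mRpS18B with Kua at 6049 and mRpS31 with hzg at 6901. These last 3 were also among those least repeated between replicates.

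Support in the replicates was counted as the IDR summit lying in a peak among the 7089 strongest of a replicate. By this count 17 of the 21 summits were supported by all 3 replicates (81.0%), 3 by 2 and 1 by 1, while 67.9% of promoter IDR summits had the support of all 3. mRpL51 ranked 3025, 4994 and 9636 in replicates 1, 2 and 3. mRpS17 ranked 8192, 6379 and 3673, and mRpS18B 5574, 8153 and 7527. mRpS31 ranked 5534 in replicate 1 and 3976 in replicate 3 and lay in no peak of replicate 2. The IDR list was made from these replicates, so this support is not independent of it.

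Calling genes in each replicate by itself gave similar counts. With the 7089 strongest peaks of each list, 24 of the 73 genes were bound in replicate 1, 28 in replicate 2 and 22 in replicate 3, or 33.8% ± 4.2 (SD, n = 3). The shares of all protein-coding genes were 20.8%, 20.7% and 20% in the same lists. The difference between the ribosomal genes and all protein-coding genes was 13.3 ± 3.90 percentage points (SD, n = 3) and above 0 in every replicate. This comparison was not matched for arrangement. A divergent partner was present at 79.5% of the ribosomal genes and at 39.6% of all protein-coding genes. In all, 17 genes were bound in all 3 replicates and 35 in at least 1. No gene without a divergent partner was bound in replicates 1 and 2, and 2 were in replicate 3, mRpL19 and mRpS5.

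The 500 bp limit left 3 genes near its edge. mRpS31 was just inside at 496 bp. Just outside lay mRpS25, 539 bp from a summit of rank 5560, and mRpL33, 615 bp from a summit of rank 3004, both on X and both with a bound partner, nmdyn-D6 and norpA. The next unbound gene, mRpL27, lay 1022 bp from a summit. mRpL53 also had a bound partner, AGO1, but its nearest IDR summit was 3386 bp away, at another of that gene's starts.

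Of the 52 unbound genes, 10 had a weaker summit within 500 bp in the pooled list, which holds 30000 peaks called on the 3 replicates together. These were mRpL17 at rank 7474, mRpL35 at 7858, mRpL19 at 8002, mRpL50 at 8257, mRpS16 at 8863, mRpL48 at 9843, mRpL27 at 10072, mRpS21 at 10299, mRpS5 at 12745 and mRpL22 at 14302. No gene was added at ranks weaker than that of mRpL22. In total 31 of the 73 genes (42.5%) had a pooled summit, beside 38.9% of protein-coding genes. The share was 29 of 58 for genes with a partner, against 51.0% of such protein-coding genes, and 2 of 15 for those without, against 30.9%. At full depth the list therefore gave the divergent ribosomal genes no higher share than other divergent genes.

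**Figure D5:**
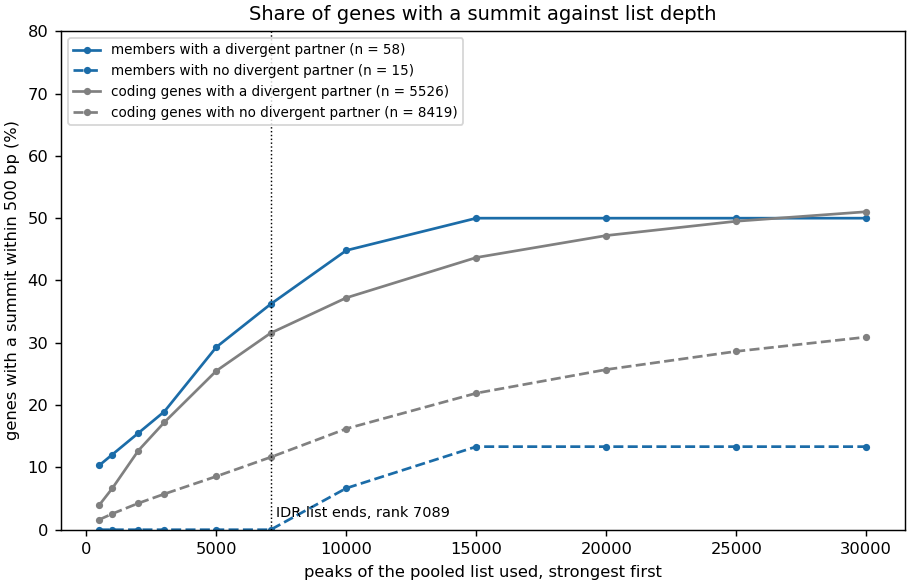
The percent of genes with a summit within 500 bp is plotted against the number of peaks of the pooled list used, strongest first, for genes with (solid) and without (dashed) a divergent partner. Among the first 500 peaks the divergent ribosomal genes stand at 10.3% and the divergent protein-coding genes at 3.98%, and at 30000 peaks at 50% and 51.0%.

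The other 42 genes had no summit within 500 bp in the pooled list. Apart from genes without a partner named above, they were mRpL1, mRpL3, mRpL4, mRpL11, mRpL15, mRpL16, mRpL28, mRpL30, mRpL32, mRpL33, mRpL37, mRpL38, mRpL39, mRpL42, mRpL43, mRpL44, mRpL46, mRpL47, mRpL52, mRpL53, mRpL55, mRpS11, mRpS14, mRpS18A, mRpS18C, mRpS25, mRpS28, mRpS29 and mRpS30. Among them is mRpS29, known in mammals as the GTP-binding protein DAP3. mRpL10 and mRpL12, whose bacterial counterparts form the stalk that engages elongation factors, have no partner and no summit.

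Other genes of mitochondrial gene expression were bound at 9 of 47, or 19.1%, beside the background of 19.5%. Neither tko nor bonsai, which encode small subunit proteins but are named otherwise, was bound. Among 11 translation factors mIF2 alone, an initiation factor, was bound, at rank 6402. Of 15 mitochondrial tRNA synthetases, the enzymes that load amino acids, ArgRS-m (rank 3322), ProRS-m (3793) and CysRS-m (4372) were bound. Of 19 genes for mitochondrial DNA and RNA factors 5 were bound. PNPase, a mitochondrial RNA-degrading enzyme, had rank 6, and SLIRP2, an RNA-binding protein gene, rank 85. SLIRP1 had rank 1132, mTerf5, of the transcription termination family, rank 2251, and mtSSB, the single-stranded DNA binding protein gene, rank 5426. The mtSSB summit lay in no peak of replicate 1 and ranked 1881 and 14985 in replicates 2 and 3. The genes for TFAM and for the mitochondrial RNA polymerase, PolrMT, were not bound. A divergent partner was present at 27 of these 47 genes and at 6 of the 9 bound ones, while mIF2, SLIRP1 and mtSSB were bound without one.

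Nuclear genes of oxidative phosphorylation, whose products work beside those the mitochondrial ribosome makes, were bound at 16 of 48 genes with a divergent partner (33.3%) and at none of 42 without, which allows a share of up to 7.14%, below the background of 11.6%. Genes for proteins of the cytosolic ribosome were bound in both arrangements, at 47 of 58 (81.0%) and 19 of 34 (55.9%). The 95% exact interval for their genes without a partner, 37.9% to 72.8%, lay above the exact upper limit of 21.8% for the mitochondrial ones. No test of these differences was made.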

How the data were processed

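The 3 libraries form 1 group, and replicate numbers come from the labels. The authors deposited narrowPeak lists on dm6 and dm3, of which the 5 dm6 lists were used, since no dm3 annotation was used here. Each list carries a signal value per peak whose scale is not stated, deposited by the authors. An inventory deposited by the authors derives each replicate list from the library's alignment and 1 further file, not analysed here, and the IDR list from the replicate and pooled lists. The aligner, the caller and the IDR cut-off were not given in the sources used here. The 7089 IDR peaks are the 7089 strongest of the pooled list. Read depth is unknown, so the number of genes and of replicates limits precision. Summits are column 2 plus column 10, written 1-based. Starts came from the Ensembl BDGP6 annotation, without transposable elements (18164 genes on 6 arms). Sequence came from RefSeq release 6, and peak ends lay within its arms. Python 3.11.15, numpy 2.4.6 and scipy 1.17.1 were used. The call was tested on simulated data, where all 200 genes given a summit were called. Named are all bound genes, all unbound genes, and bound genes of the related lists. The genes and lists were chosen with earlier results of these data known. Alternatives were other windows, starts, lists and partner definitions. For each replicate in turn, IDR summits were also kept only where both other replicates supported them, with the IDR list itself unchanged. The mean count per replicate was also taken without each replicate.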

Additional observations from a re-analysis of the deposited data

How the results depend on the processing

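The count of 21 bound genes was 13 with a 200 bp window and 8 when only the nearest start could claim a summit, and these genes all had a divergent partner. All protein-coding genes bound fell from 2724 to 1774 with the 200 bp window and to 1652 in the stronger part of the IDR list, and the pooled list gave 5423. With the pooled list 2 genes without a partner were bound and 13 genes were nearest to their summit. With a partner required within 500 bp, 1 gene without one was bound, mRpL41. The mean count per replicate was 39.3 with all 30000 peaks, 11.7 with the top 3000 and 16.3 with a 200 bp window. The related mitochondrial lists gave 16 with the pooled list and 5 in the stronger part of the IDR list. The core ATCGAT stood at 37.0% of the 73 promoters and at 23.3% of those of protein-coding genes. Among genes with a divergent partner the shares were 37.9% and 32.8%. The cause of these shifts was not tested. In turn for replicates 1, 2 and 3, only IDR summits supported by both of the other replicates were kept. The IDR list itself still came from all 3, so the count could only fall. It was 18 each time (24.7%), all with a partner, beside 14.6%, 15.2% and 15.9% of protein-coding genes. The genes lost in 1 or more of these were mRpL51, mRpS17, mRpS18B and mRpS31. The genes mRpL23, mRpL41, mRpS6, mRpS7 and mRpS22 were bound under all 10 settings of window, start, list and replicate. No paired analysis was possible because the series has 1 group.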

Other observations

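The string TTAATT, which reads AATTAA on the other strand, was noticed in the stretches shown and then counted, so its frequency is a description chosen after seeing the data. It was found in the 100 bases at the summit of 15 of the 21 bound mitochondrial ribosomal protein genes (71.4%), and in 3 of 42 windows of the same length centred 300 bp to either side of these summits. It was found at 25.9% of the 2565 IDR summits within 500 bp of a start. At the 1056 best summits of bound protein-coding genes with a divergent partner the share was 30.3%. The summit of mRpL41, the highest ranked of the bound ribosomal genes, did not hold the string. Of the summits whose stretch had been read when the string was noticed 10 of 13 held it, and of the others 5 of 8. It is made of A and T alone, and A and T content moves with it. Among summits with at least 70% A and T, 12 of 16 at the ribosomal genes and 39.8% of 1177 at promoters held it. In 100 bases centred 150 bp upstream of the start, it was found at 18 of the 52 unbound ribosomal genes (34.6%) and at 21.2% of unbound protein-coding genes. The share was 4 of 16 at oxidative phosphorylation summits and 7 of 66 at cytosolic ribosomal protein summits. Whether the string bears on binding was not tested.

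Some genes had strong summits in single replicates that have no counterpart in the pooled list. mRpL37 had a summit 137 bp upstream of its start at rank 2830 in replicate 1 and at -148 bp at rank 3539 in replicate 2, and none in replicate 3. The nearest pooled summit lay 23015 bp away. At mRpL53 the summits of replicates 2 and 3 ranked 5474 and 3854, and the nearest pooled summit lay 1873 bp away. These were 2 of the 22 ribosomal genes bound in at least 2 replicates, and among protein-coding genes 163 of 2808 (5.80%) were of this kind. Counting genes bound in at least 1 replicate, 10 of 35 ribosomal genes (28.6%) and 10.2% of 3740 protein-coding genes had no pooled summit within 500 bp. Among the ribosomal genes so counted was mRpS25, close to the limit. Its replicate 3 summit lay at -495 bp, and its nearest pooled summit lay 539 bp away.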
